A study of Mus musculus with 3 samples.

Results

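The genes described here are Neat1, which gives the RNA scaffold of paraspeckles, and those of 8 nuclear RNA-binding proteins, Nono, Sfpq, Pspc1, Rbm14, Ewsr1, Taf15, Tardbp and Ddx5, a set drawn up around the nuclear condensates in which the study followed the transcription cofactor VGLL3. Their probes were found through the RefSeq transcript that the scanner files give for each probe. All 9 genes were present, with 16 probes among the 35055 probes, and 9 genes among the 15394 named genes, that were well above background on at least 1 array. All 16 member probes were well above background on all 3 arrays, so the filter on dim probes removed none of them. Of the 9 genes, 5 were read by several probes and 4 by 1 probe.

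Cardiac myofibroblasts, the contractile and matrix-producing fibroblasts of the injured heart, were compared in 3 states with 1-colour Agilent arrays that measure labelled RNA. Per the labels, the cells came from male C57BL/6J mice whose left anterior descending coronary artery had been tied permanently, and the hearts were digested 3 days later. The age is given as 8 weeks in one label and as 10 weeks at surgery in another. The digested cells attached to plastic overnight, and those without CD45, a surface protein of leukocytes, were taken as myofibroblasts. The labels name no genetic change and no drug in any group. Adherent cells were grown on plastic plates, non-adherent cells had been moved into suspension, and re-adherent cells had been returned from suspension to plates. Each state had 1 array, made from RNA pooled over several hearts, so no difference below has a replicate check and no p-value is given. The states were collected one after another, and time in culture cannot be told apart from the state. The study reported that most cells were lost in suspension to anoikis, a programmed death of detached cells. The effect of that loss on the later arrays was not tested. In bulk RNA a lower signal from fewer cells of a type cannot be told apart from less RNA per cell.

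Signals are in the scanner's intensity units. Levels are log2 signals minus the log2 of the 75th percentile of the same array, which was 650.9 units for adherent, 696.6 for non-adherent and 541.3 for re-adherent cells. The error given with a log2 difference combines the errors that the scanner software assigned to the spots, and it covers technical error within the arrays only. A difference counts as called when it exceeds 2-fold, which is 1 on the log2 scale. As a check of the states, Acta2, which encodes alpha-smooth muscle actin, gave signals of 435300, 4690 and 345278 units in adherent, non-adherent and re-adherent cells. Vgll3 gave 665.6, 15.2 and 534.3 units, and the value of 15.2 was not well above background. Vgll3 was therefore at least 46.8-fold higher in adherent cells, and at least 45.2-fold higher after re-adhesion, than in suspension. All 9 fibroblast and all 5 myofibroblast markers listed were detected above background in each state. The fibroblast markers summed to 1103, 884 and 831 multiples of the 75th percentile in adherent, non-adherent and re-adherent cells, but single markers moved in both directions. In suspension 4 of the 9 fell past the 2-fold threshold, with Thy1 at -3.50, while Lum (3.56) and Dcn (1.7) rose past it. On re-adhesion Thy1 differed by 3.27, Lum by -6.41 and Dcn by -3.20. The signals of the myofibroblast markers summed to 1636, 29.9 and 1629 multiples of the 75th percentile in the same order of arrays, with 4 of 5 over 2-fold lower in suspension. The cells in suspension also gave more signal from leukocyte genes. Of 12 measured macrophage markers of 14 listed, 11 were over 2-fold higher in suspension, and the sum of their signals in multiples of the 75th percentile was 190, 1166 and 391 on the 3 arrays in the same order. Ptprc, which encodes CD45 itself, gave 355.4, 2441.0 and 531.7 units. The 8 endothelial markers summed to 23.3, 35.4 and 22.2 multiples, with 5 of 8 over 2-fold higher in suspension. Most of the last sum came from 1 marker, at a log2 level of 4.25. On re-adhesion 7 of the 8 were over 2-fold lower and 1 was higher. In re-adherent against adherent cells 5 were over 2-fold lower and 1 was higher, with a median of -1.77. The 5 measured cardiomyocyte markers of 8 listed summed to 1.18, 1.95 and 3.36. Again 1 marker, at a level of 1.6, made up most of the last sum, and on re-adhesion 3 of the 5 were lower and 2 higher. All 12 macrophage and all 8 endothelial markers were well above background in adherent and non-adherent cells, and 12 and 6 of them in re-adherent cells. The part of these cells in the results below was not tested.

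Paraspeckles are nuclear bodies that assemble on the long noncoding RNA Neat1. The study found no Neat1 in most VGLL3 condensates, and placed VGLL3 in NONO condensates other than paraspeckles. NONO, SFPQ and PSPC1 form the DBHS family, which binds RNA and DNA as dimers and coats the Neat1 scaffold, and RBM14 is needed for the bodies to form. EWSR1 and TAF15 are related RNA-binding proteins with low-complexity domains that favour condensation. TARDBP, also called TDP-43, binds UG-rich RNA and controls splicing, and DDX5 is an RNA helicase that works with the Drosha complex on primary microRNAs. The arrays measured the RNA of these genes and not the proteins or the bodies.

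Neat1 had the largest differences of the 9 genes on re-adhesion and between re-adherent and adherent cells. Its probe (A_51_P234692, transcript NR_003513) gave 11426 units in adherent cells, 22220 in non-adherent cells and 3139 in re-adherent cells. The signal was highest in suspension and lowest after re-adhesion. The level in suspension was 0.86 ± 0.20 above the adherent level on the log2 scale, which is 1.82-fold and below the 2-fold threshold. Between suspension and re-adhesion it fell by 2.46 on the log2 scale with an error of 0.20, which is 5.50-fold, and only 2.7% of all 35055 probes lay lower in that comparison. The re-adherent level was 3.03-fold below that of the first adherent cells, a log2 difference of -1.60 ± 0.20, and 2.5% of all probes lay lower. For comparison, the re-adherent level of Acta2 differed from its adherent level by -0.07 ± 0.20, less than the error. Over all alternatives tried, the Neat1 difference stayed between 0.62 and 1.19 for suspension, between -2.82 and -2.45 for re-adhesion and between -2.06 and -1.51 for re-adherent against adherent cells. The files give 1 transcript for the probe and not its place within it, and the short and long forms of Neat1 were not told apart.

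**Figure D1:**
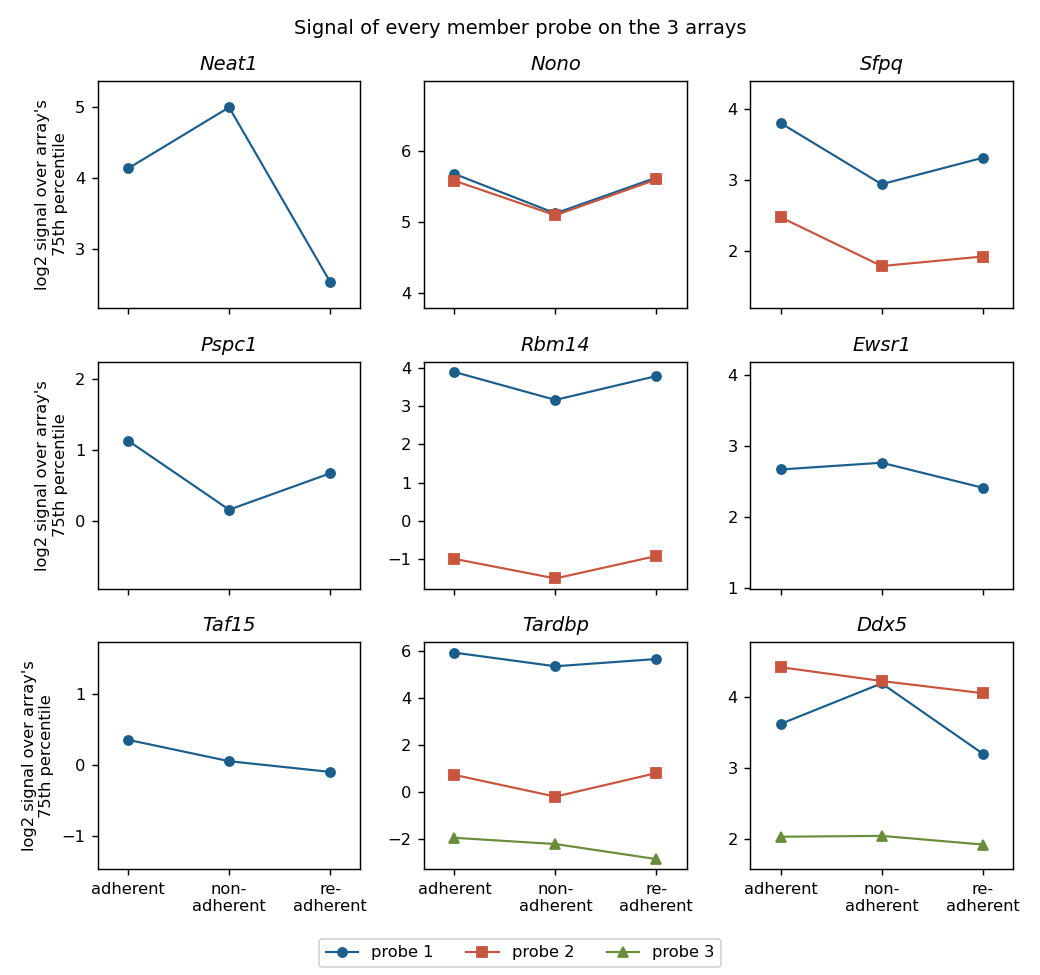
Log2 signal over the array's 75th percentile (vertical axes, each spanning its own range) of every member probe in adherent, non-adherent and re-adherent cells (horizontal axis), with 1 panel per gene and 1 line per probe. Neat1 peaks in suspension and ends lowest, while Nono, Sfpq, Pspc1 and Rbm14 dip in suspension. The height of lines of different probes is not comparable.

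The genes nearest to Neat1 in pattern were found by the Euclidean distance between log2 differences (non-adherent minus adherent and re-adherent minus adherent) over the 3 arrays. Among 13478 other genes well above background on all 3 arrays, they were Adgrg1 at a distance of 0.05, Egr1 at 0.21, Mdk at 0.22, Ntn1 at 0.27 and Kazald1 at 0.27. The technical error on each Neat1 difference was 0.20, so the order of these genes is not resolved. Adgrg1, an adhesion G protein-coupled receptor, differed by 0.87 in suspension and by -2.52 on re-adhesion. Egr1, an immediate-early transcription factor, differed by 1.03 and -2.50 for the same steps.

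The DBHS genes were lower in suspension on each of their probes, by less than 2-fold. Nono was read by 2 probes for the transcript NM_023144. The first (A_55_P1957927) gave 33293, 24249 and 26720 units in adherent, non-adherent and re-adherent cells, and the second (A_55_P2062622) gave 31153, 23795 and 26219. Both were lowest in suspension. The differences were -0.56 and -0.49 for non-adherent against adherent and 0.50 on both probes for re-adherent against non-adherent, each with an error of 0.20. Re-adherent against adherent they were -0.05 and 0.02, smaller than the error. The sign of the first turned in 1 of 11 alternatives, to 0.04 with median scaling. That of the second turned in 6 of 11, to as low as -0.44 with spike-in scaling.

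Sfpq, the partner of Nono in dimers, was read by 2 probes for NM_023603. Probe A_55_P2128451 gave 9112, 5368 and 5399 units and probe A_55_P2164189 gave 3631, 2413 and 2058 units in adherent, non-adherent and re-adherent cells. The adherent signal was the highest on both. In suspension the log2 differences were -0.86 and -0.69, with an error of 0.20. On re-adhesion they were 0.37 ± 0.20 and 0.13 ± 0.20. The second turned in 4 of 11 alternatives, to as low as -0.23 with no scaling. Sfpq ended below its first adherent level, by -0.49 and -0.55 on the 2 probes, with an error of 0.20.

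Pspc1, the remaining family member, was read by 1 probe (A_51_P330133, NM_025682) with signals of 1420, 774.7 and 858.5 units. Its difference in suspension, -0.97 ± 0.20, was the lowest among the 16 member probes and just inside the 2-fold threshold, which it passed under quantile normalization and spike-in scaling. On re-adhesion it was 0.51 ± 0.20 higher, and it ended -0.46 ± 0.20 from the adherent level.

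Rbm14 followed the same order, with the lowest signal in suspension on both of its probes for NM_019869. Probe A_51_P116616 was printed 10 times on each array. Its spots ranged from 9104 to 10104 units (median 9730) in adherent cells, from 5516 to 6478 units (median 6278) in suspension and from 6972 to 7743 units (median 7493) after re-adhesion. As log2 levels they had means of 3.89 ± 0.06, 3.16 ± 0.07 and 3.78 ± 0.04 (SD, 10 spots of 1 RNA sample, not replicates). The levels of the 10 spots in suspension, 2.98 to 3.22, lay below all spots of the other arrays, while adherent levels of 3.81 to 3.96 and re-adherent levels of 3.69 to 3.84 overlapped. Spots this far apart were common: of 269 probes printed 10 times and well above background on all 3 arrays, 36.4% had all spots lower in suspension than on the adherent array, and 38.3% had all spots higher after re-adhesion than in suspension. The log2 differences of this probe were -0.73 ± 0.20 in suspension, 0.62 ± 0.20 on re-adhesion and -0.11 ± 0.20 between re-adherent and adherent cells. The second probe (A_55_P1996742), with 326.8, 245.4 and 286.4 units, gave -0.51 ± 0.20, 0.59 ± 0.21 and 0.08 ± 0.21. The last of these turned in 4 of 11 alternatives, to as low as -0.38 with spike-in scaling.

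**Figure D2:**
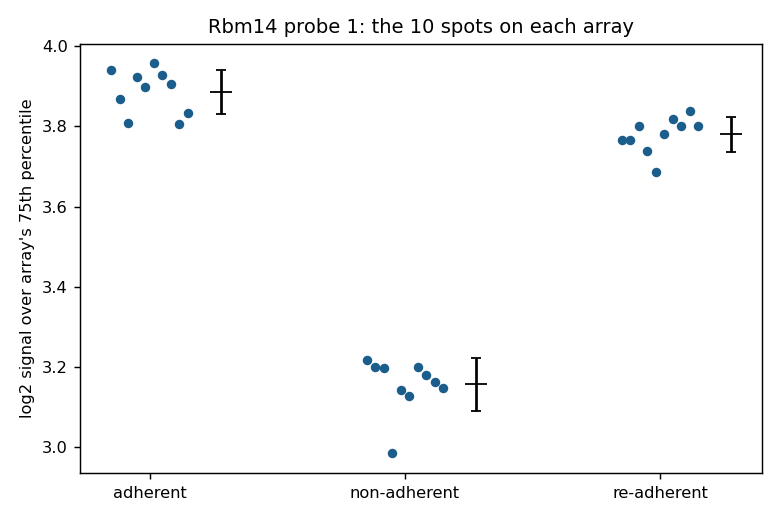
Log2 signal over the array's 75th percentile (vertical axis) for the 10 spots of the Rbm14 probe A_51_P116616 on each of the 3 arrays (horizontal axis). Points are single spots of 1 RNA sample per state, and bars show their mean and SD. The non-adherent spots lie between 2.98 and 3.22, below the spots of both other arrays.

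All 7 probes of Nono, Sfpq, Pspc1 and Rbm14 were lower in suspension, and all 7 were higher again after re-adhesion with the scaling used. With no scaling the second Sfpq probe turned to -0.23 and the other 6 lay between 0.01 and 0.26, of which 4 were smaller than their error. The 250 bases before the annotated start of each of these 4 genes are shown to let their promoters be compared, since they are the members whose probes all shared these signs. They are from RefSeq on the build GRCm38.p6, 5′ to 3′ on the strand of the gene, at chrX:101429401-101429650 on the plus strand for Nono, chr4:127021051-127021300 on the plus strand for Sfpq, chr14:56778319-56778568 on the minus strand for Pspc1 and chr19:4811635-4811884 on the minus strand for Rbm14. Capitals mark matches to CCAAT on either strand and, in Pspc1, 1 match to GGGCGG.
Nono: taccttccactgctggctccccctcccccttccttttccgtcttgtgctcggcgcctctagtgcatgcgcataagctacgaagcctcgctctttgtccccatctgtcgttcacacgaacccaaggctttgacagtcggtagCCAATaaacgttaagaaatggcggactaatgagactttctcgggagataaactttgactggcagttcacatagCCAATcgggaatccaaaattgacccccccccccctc
Sfpq: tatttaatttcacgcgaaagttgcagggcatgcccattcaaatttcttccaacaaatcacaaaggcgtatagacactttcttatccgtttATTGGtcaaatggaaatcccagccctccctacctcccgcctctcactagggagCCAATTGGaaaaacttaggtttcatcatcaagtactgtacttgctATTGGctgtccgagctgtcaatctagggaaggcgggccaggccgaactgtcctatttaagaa
Pspc1: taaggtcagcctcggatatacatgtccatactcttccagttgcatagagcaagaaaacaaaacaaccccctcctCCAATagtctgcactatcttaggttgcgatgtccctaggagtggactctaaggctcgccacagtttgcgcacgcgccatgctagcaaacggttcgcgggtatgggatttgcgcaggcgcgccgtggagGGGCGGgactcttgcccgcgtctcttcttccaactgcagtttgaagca
Rbm14: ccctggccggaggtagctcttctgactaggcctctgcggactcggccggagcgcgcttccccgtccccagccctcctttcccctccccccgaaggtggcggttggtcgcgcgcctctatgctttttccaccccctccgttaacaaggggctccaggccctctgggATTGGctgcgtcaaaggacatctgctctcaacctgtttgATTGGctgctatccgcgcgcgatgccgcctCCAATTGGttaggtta

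Each of the 4 windows held a match to CCAAT, the box bound by the factor NF-Y. Counting both strands, Nono had 2 matches, Sfpq 4, Pspc1 1 and Rbm14 4, and in Sfpq and Rbm14 a pair of them overlapped by 2 bases on opposite strands. Among 32851 RefSeq promoter windows of this length, 33.8% held at least 1 match. The 4 genes were picked by their signs on these same arrays, and the background windows were not matched for CpG content. A link between the matches and the signs was not tested. The other motifs searched on both strands were GGAATG, the core bound by the TEAD factors with which VGLL3 acts, TGANTCA of AP-1, GGGCGG of the GC box, CACGTG of the E-box and the CArG box of SRF, held by 12.6%, 6.7%, 32.7%, 6.0% and 1.5% of all windows. None of these 4 windows held the TEAD core, the AP-1 motif, the E-box or a CArG box. Of the other members with a listed window, Ewsr1 had 1 match to GGAATG and none to CCAAT, Taf15 had 2 to CCAAT and 1 to GGGCGG, and Tardbp had 3 to GGGCGG and none to CCAAT. Of the 3 starts listed for Ddx5, 2 held GGAATG, 1 held CCAAT, 1 held CACGTG and 1 held 4 matches to GGGCGG. The windows held 13 CpG dinucleotides for Nono, 8 for Sfpq, 16 for Pspc1 and 19 for Rbm14, against a median of 6 over all windows. Those of the other members held more, with 31 for Ewsr1, 25 for Taf15, 24 for Tardbp and 30, 23 and 22 for Ddx5. A match describes the letters in the window and is not a measured binding site. Neat1 was not among the promoters.

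Ewsr1 and Taf15 differed by less than 2-fold in all 3 comparisons. Ewsr1 (A_55_P2010332, NM_007968) gave 4141, 4731 and 2881 units in adherent, non-adherent and re-adherent cells. Its log2 difference in suspension, 0.09 ± 0.20, was smaller than the error and turned to -0.15 with spike-in scaling. On re-adhesion it was -0.35 ± 0.20, and against the first adherent cells -0.26 ± 0.20.

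Taf15 (A_55_P1994817, NM_027427) gave 831.5, 721.9 and 505.4 units. Its differences were -0.30 ± 0.20 in suspension, or 0.02 when reduced by the local median of the array, -0.15 ± 0.20 on re-adhesion and -0.45 ± 0.20 between re-adherent and adherent cells. Spots around the Taf15 spot (within 5 rows and 5 columns) had a median difference of 0.69 for re-adherent against non-adherent, and its value after that reduction was -0.84.

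The probes of Tardbp disagreed. Probe A_55_P1980180 for NM_145556 gave 40006, 28645 and 27567 units in adherent, non-adherent and re-adherent cells. Probe A_55_P2005135, listed for the transcript NM_001008546, gave 1087, 613.6 and 954.2 units. The dimmest probe, A_65_P18570, gave 170.1, 151.5 and 75.6 units. In suspension their differences were -0.58 ± 0.20, -0.92 ± 0.20 and -0.26 ± 0.21, the last of which turned to 0.02 when reduced by the local median. On re-adhesion they parted, with 0.31 ± 0.20, 1.00 ± 0.20 and -0.64 ± 0.22. The first turned in 3 of 11 alternatives, to as low as -0.08 with quantile normalization. The second, 1.001 before rounding, passed the 2-fold threshold by less than its error, and it was 0.996 when flagged spots were left out of the 75th percentile. Against adherent cells the differences were -0.27 ± 0.20, 0.08 ± 0.20 and -0.91 ± 0.22. The second of these turned in 4 of 11 alternatives, to as low as -0.38 with spike-in scaling. The SD between the 3 probes was 0.82 on re-adhesion, against a median of 0.18 over 3483 genes with several probes, and 7.1% of those genes had an SD at least as large. Spots around the dimmest probe had a local median of 0.66 in that comparison. Whether the probes read different transcripts was not tested.

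The 3 probes of Ddx5, all listed for NM_007840, also differed. Probe A_52_P611798 gave 8020, 12748 and 4991 units in adherent, non-adherent and re-adherent cells, so its signal was highest in suspension. Probe A_55_P1990663 gave 13952, 13046 and 9005 units and probe A_55_P2076797 gave 2665, 2874 and 2053 units, and both varied less. In suspension the first was 0.57 ± 0.20 higher. The others differed by -0.20 ± 0.20 and 0.01 ± 0.20, which turned to 0.08 with the local median and to -0.24 with spike-in scaling. On re-adhesion the 3 probes gave -0.99 ± 0.20, -0.17 ± 0.20 and -0.12 ± 0.20, with a local median of 0.72 around the last. The first was just inside the 2-fold threshold and passed it with no scaling (-1.35), the authors' values (-1.26), spike-in scaling (-1.20), quantile normalization and reduction by the local median. All 3 ended lower than in the first adherent cells, by -0.42 ± 0.20, -0.37 ± 0.20 and -0.11 ± 0.20.

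**Figure D3:**
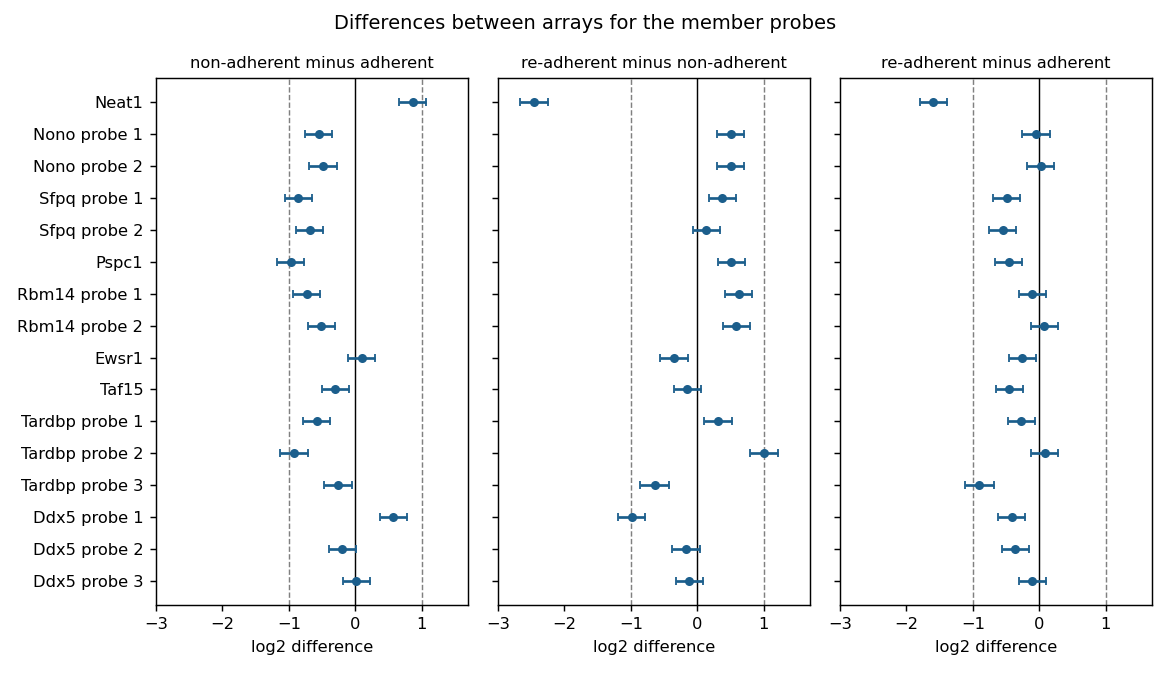
Log2 differences of the 16 member probes (horizontal axes) for non-adherent minus adherent, re-adherent minus non-adherent and re-adherent minus adherent, with 1 row per probe in the order of the text. Bars are the software's technical error of about 0.20, dashed lines mark 2-fold, and Neat1 lies past the line in both panels with re-adherent cells, at -2.46 and -1.60.

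Counted over all members, 0 of 16 probes were over 2-fold lower and 0 were over 2-fold higher in suspension, where 14.7% and 14.4% of all probes were. On re-adhesion 1 probe (Neat1) was over 2-fold lower and 1 (the second of Tardbp) over 2-fold higher, where 15.5% and 15.8% of all probes were. In re-adherent against adherent cells 1 probe (Neat1) was over 2-fold lower and 0 were higher, against 7.11% and 4.83% of all probes. The median difference over the 16 probes was -0.50 in suspension, 0.22 on re-adhesion and -0.32 between re-adherent and adherent cells, beside medians of -0.13, 0.08 and 0.01 over all probes, of which quantile normalization turned the member value on re-adhesion to -0.02 and no scaling to -0.14. Of the 16 probes, 12, 7 and 13 lay below 0 in these comparisons, where 56.6%, 46.4% and 48.9% of all probes did. The comparisons share arrays, and the probes of 1 gene are not independent. The 3 comparisons placed the 15 protein-coding probes between -0.97 and 0.57, between -0.99 and 1.00 and between -0.91 and 0.08.

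**Figure D4:**
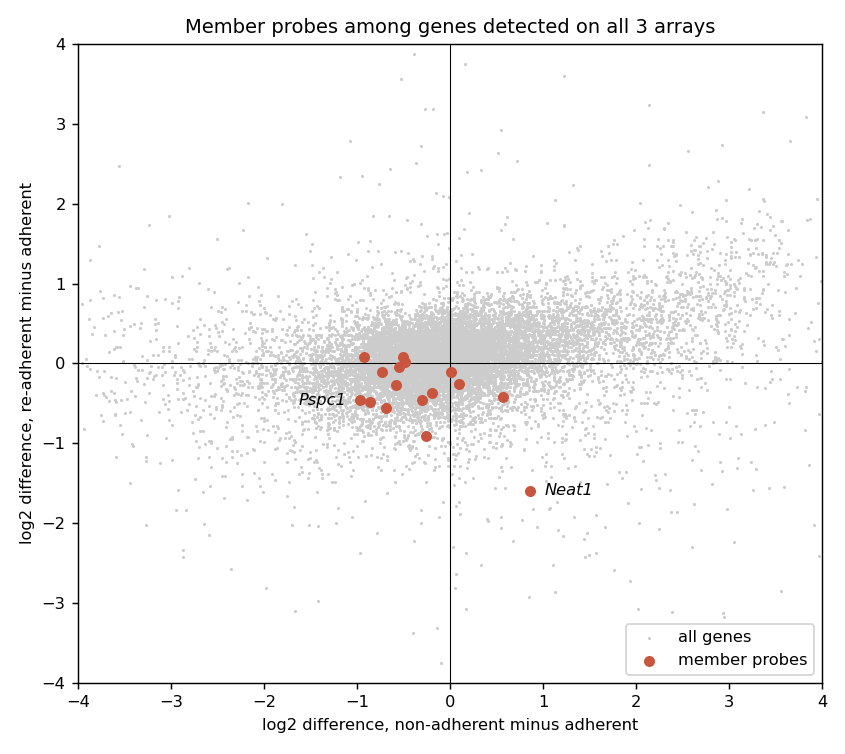
Log2 difference of re-adherent minus adherent cells (vertical axis) against that of non-adherent minus adherent cells (horizontal axis) for 13479 genes well above background on all 3 arrays (grey) and the 16 member probes (red). Both axes share the adherent array, and 115 genes lie outside the limits of -4 and 4. Neat1 lies apart from the other members, at 0.86 and -1.60.

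The 5 genes nearest to Nono in pattern were Cactin, Col4a4, Map6d1, Olfr1349 and Zc3h14, at distances between 0.007 and 0.014 over the same 3 arrays and 13478 genes. These distances were smaller than the technical error of 0.20 on each Nono difference, so which genes lie nearest is not resolved.

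Other genes of the same machinery were counted by their brightest probe, against the share of all 15394 genes. In suspension 14.7% of genes lay more than 2-fold lower and 17.2% more than 2-fold higher. On re-adhesion 16.3% were lower and 15.6% higher, and between re-adherent and adherent cells 4.9% were lower and 4.84% higher. Of 32 other paraspeckle proteins, 7 were over 2-fold lower and 4 higher in suspension, 3 lower and 7 higher on re-adhesion, and 2 lower and 1 higher in re-adherent against adherent cells. Their medians were -0.33, 0.25 and -0.02, and the last 2 turned with the scaling, to -0.12 with no scaling and to 0.07 with median scaling.

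Those that fell over 2-fold in suspension included Hnrnpa1, Dazap1, Rbmx, Nudt21, Fam98a and Fign. Hnrnpa1, a splicing repressor, gave 12778, 4426 and 9261 units in adherent, non-adherent and re-adherent cells, with differences of -1.63 ± 0.20 and 1.43 ± 0.20 for the steps into and out of suspension. Rbmx, an RNA-binding protein encoded on the X chromosome, gave 2809, 1244 and 2195 units, with differences of -1.27 ± 0.20 and 1.18 ± 0.20. Fam98a differed by -1.26 and 1.23, Nudt21, a subunit of the cleavage factor that sets polyadenylation sites, by -1.06 and 1.13, and Dazap1 by -1.02 and 1.15, each with an error of 0.20. Fign, on a dim probe of 82.8, 29.3 and 33.5 units, differed by -1.60 ± 0.27 and 0.56 ± 0.32 and ended 2.06-fold below the adherent level, but normexp correction put it at -0.65 in suspension. In suspension Dazap1 and Nudt21 came inside 2-fold with no scaling, at -0.92 and -0.96, with the authors' values and with median scaling. On re-adhesion Rbmx, Fam98a, Nudt21 and Dazap1 were inside 2-fold with no scaling, at 0.82, 0.87, 0.77 and 0.78, and Hnrnpa1 was past 2-fold in both steps under the 8 alternatives recomputed for single list genes.

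The 4 that rose over 2-fold in suspension were Bcl6, Zc3h6, Akap8l and Bcl11a. Bcl6, a transcriptional repressor also made by leukocytes, gave 3322, 9837 and 3264 units, with differences of 1.47 ± 0.20 and -1.23 ± 0.20. Zc3h6 differed by 1.25 ± 0.21 and -0.86 ± 0.21, and Akap8l by 1.07 ± 0.20 and -0.65 ± 0.20, and with spike-in scaling both came inside 2-fold in suspension, Akap8l at 0.82. Bcl11a gave 8.3 units on the adherent array, which was not well above background, and 20.5 and 117.5 units on the others, so its re-adherent signal was at least 8.43-fold above the adherent one and 7.39-fold above the one in suspension. It counts among the 4 by its measured difference of 1.21 ± 0.72 in suspension, where its bound was at least 1.14-fold. Hnrnph3 gave 31.3, 41.0 and 5.9 units, the last not well above background, so that re-adherent cells were at least 2.60-fold below non-adherent and 2.12-fold below adherent cells. Ss18l1 fell by 1.43 on re-adhesion, with an error of 0.28 and dim signals of 49.7, 98.9 and 28.6 units. With normexp correction, whose offset compresses dim signals, Bcl11a came to 0.09 in suspension, and on re-adhesion Hnrnph3 came to -0.31 and Ss18l1 to -0.53.

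All 21 genes in a list of hnRNP, SR and related RNA-binding proteins outside the paraspeckle list were lower in suspension, with a median of -0.55. Quantile normalization, no scaling and the authors' values each left 20 of 21 lower. Elavl1, which stabilises AU-rich messages, was the 1 gene of the 21 past 2-fold, with 23682, 12236 and 21247 units and differences of -1.05 ± 0.20 and 1.16 ± 0.20. Its difference in suspension was inside 2-fold with no scaling (-0.95), the authors' values (-0.95), median scaling (-0.98) and quantile normalization (-0.97), and on re-adhesion it was 0.80 with no scaling. On re-adhesion 19 of 21 were higher, with a median of 0.44, and with no scaling 12 of 21 were. Between re-adherent and adherent cells the median was -0.10, with 0 genes past 2-fold in either direction. The median of the 16 member probes in suspension was -0.50, beside -0.13 over all probes. By the brightest probe of each gene, the 9 members had a median of -0.555, beside this list's -0.55 and -0.07 over all genes.

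The 13 genes of microRNA processing and loading did not move in 1 direction, with 7 lower and 6 higher in suspension, a median of -0.15 and medians of 0.20 on re-adhesion and 0.04 between re-adherent and adherent cells, of which the last 2 turned to -0.16 and -0.23 with no scaling. Drosha, the nuclease that cuts primary microRNAs and a partner of Ddx5, gave 4675, 2475 and 3426 units and differences of -1.02 ± 0.20 and 0.83 ± 0.20. Xpo5, which exports precursor microRNAs from the nucleus, differed by -1.06 ± 0.20 and 1.13 ± 0.20. These 2 were the only genes of the list over 2-fold lower in suspension, and both came inside 2-fold with no scaling and the authors' values, at -0.92 for Drosha and -0.96 for Xpo5, and with median scaling, at -0.94 and -0.98. With no scaling Xpo5 was also inside 2-fold on re-adhesion, at 0.77. Ago4, an Argonaute protein that holds mature microRNAs, went the other way, with 353.7, 1344 and 271.8 units and differences of 1.83 ± 0.20 and -1.94 ± 0.21. No gene of this list was past 2-fold between re-adherent and adherent cells.

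Of 6 other nuclear long noncoding RNAs, 4 were measured. Malat1, the neighbour of Neat1 in the genome and a component of nuclear speckles, gave 4064, 7417 and 870.3 units in adherent, non-adherent and re-adherent cells. Its differences of 0.77 ± 0.20, -2.73 ± 0.20 and -1.96 ± 0.20 had the same signs as those of Neat1 in all 3 comparisons. Meg3 and Mirg, which share an imprinted locus, fell over 2-fold in suspension, with differences of -1.43 and -2.58 and an error of 0.20, and ended at -1.61 ± 0.20 and -1.54 ± 0.20 from the adherent level. Kcnq1ot1, the antisense RNA of another imprinted locus, gave -1.06 ± 0.20 in suspension, or -0.97 and inside 2-fold with no scaling, and -0.67 ± 0.20 at the end. In re-adherent against adherent cells 3 of the 4 were over 2-fold lower, and all 4 were lower under every scaling tried. The median of the 4 was -1.25 in suspension and -1.57 in that comparison, and its value of 0.11 on re-adhesion turned to -0.25 with no scaling.

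**Figure D5:**
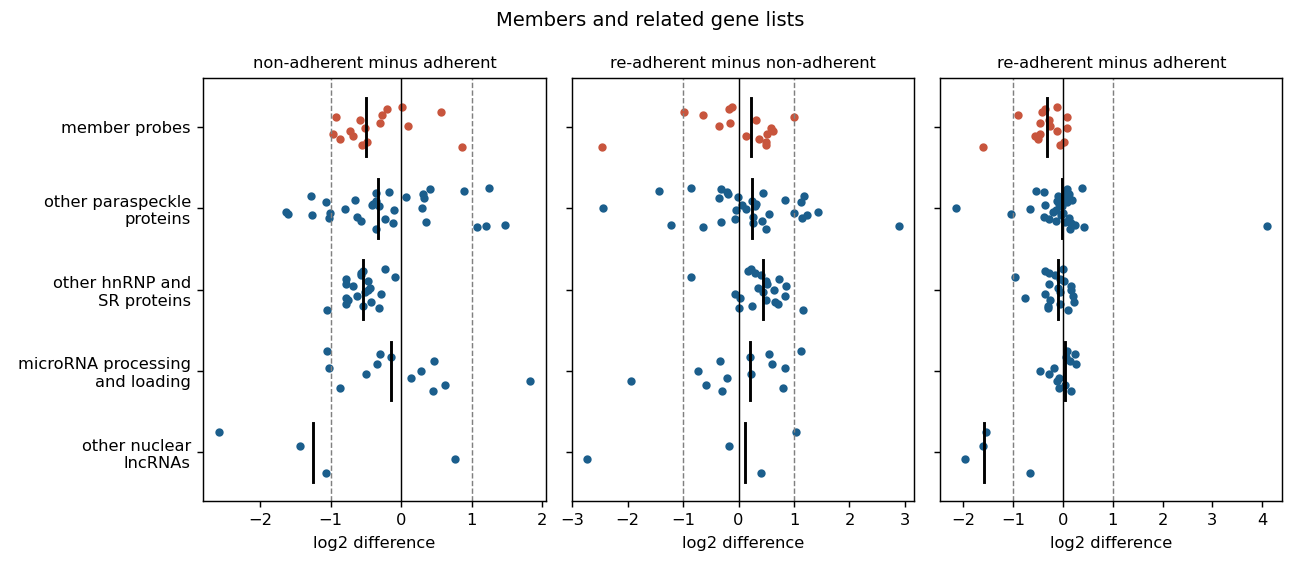
Log2 differences (horizontal axes) of the 16 member probes (red) and of the genes of 4 related lists (blue, 1 point per gene by its brightest probe) for the 3 pairs of arrays. Black bars are medians and dashed lines mark 2-fold. The member median of -0.50 and that of -0.55 for the hnRNP, SR and related proteins lie side by side in the first panel. Bcl11a and Hnrnph3 are drawn at their measured values although each was not well above background on 1 array.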

How the data were processed

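RNA from 3 states of cardiac myofibroblasts was labelled with Cy3 and hybridised to 1 Agilent array per state, all on 1 slide with 1 scan time per the file headers. The authors deposited spot intensity from Agilent Feature Extraction 10.10.1.1, background-subtracted and detrended by that software, with an error and flags for each spot, and a matrix of intensity that equalled the processed signal times 1 constant per array. Flagged spots (154, 180 and 175) were left out, saturation was flagged on 0 non-control spots, the log2 of each array's 75th percentile over all 59305 non-control spots was subtracted from log2 signals, and spots of a probe were averaged (Python 3.11.15, numpy 2.4.6, pandas 2.3.3). On the 3 arrays 58.1%, 59.9% and 53.9% of these spots were well above background, and the number of arrays limits the precision. Probes well above background on at least 1 array entered, and RefSeq transcripts gave symbols to 27229 of 55665 probes. The design of the array predates the build of the promoter table, so no probe coordinates are given. A bound sets a dim level at the higher of its own value and the lowest level well above background on that array. The members and the gene lists were chosen with earlier results of these data known. Text names every member probe, every list gene over 2-fold in a comparison except 1 gene that is counted but not reported here, Vgll3, Acta2 and Ptprc as checks, and the 5 genes nearest to Neat1 and Nono. The calculation was tested on simulated data. Alternatives covered the scaling, the background correction (normexp in limma 3.58.1, offset 50, on median signals), filters, flags, position on the array and the threshold.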

Additional observations from a re-analysis of the deposited data

How the results depend on the processing

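The direction of 37 of 48 differences (16 member probes in 3 comparisons) was the same under the 11 alternatives that recompute them, and those that turned are named with their values above. The direction of Neat1 was the same in all 3 comparisons. With spike-in scaling the median of all probes moved to -0.38 in suspension, -0.13 on re-adhesion and -0.45 for re-adherent against adherent cells. The member medians were then -0.75, 0.01 and -0.78, Neat1 was at 0.62, -2.67 and -2.06, member probes over 2-fold lower numbered 3, 2 and 3, 0 were higher on re-adhesion, and 10 list genes (6 in the main setting) were past 2-fold in re-adherent against adherent cells. With no scaling the median of all probes was -0.28 on re-adhesion and -0.25 for re-adherent against adherent cells. The member medians were then -0.14 and -0.58, Neat1 was at -2.82 and -1.86, 3 and 2 member probes were over 2-fold lower, 0 were higher on re-adhesion, and 11 list genes (18 in the main setting) were past 2-fold in suspension. The authors' values put the median of all probes at -0.20 and -0.16 in the same comparisons. They gave a member median of -0.053 and a Neat1 difference of -2.73 on re-adhesion, with 2 member probes lower and 0 higher there, 2 lower in re-adherent against adherent cells, and 11 list genes in suspension. Median scaling also gave 11 list genes in suspension. Quantile normalization gave 1 member probe over 2-fold lower in suspension, and, on re-adhesion, 2 lower and 0 higher with a median of -0.02.

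Reducing each difference by the local median of the array also removes the shift of all spots, dim ones included. Member medians became -0.24, -0.12 and -0.53 and Neat1 1.19, -2.82 and -1.81 in suspension, on re-adhesion and for re-adherent against adherent cells. One member probe was over 2-fold higher in suspension, 3 were lower and 0 higher on re-adhesion, 2 were lower in re-adherent against adherent cells, and 11 list genes were past 2-fold in suspension. At a 1.5-fold threshold 5 member probes were lower and 1 higher in suspension, 3 lower and 3 higher on re-adhesion, and 2 lower in re-adherent against adherent cells. At 4-fold 0 were higher on re-adhesion and 0 lower in re-adherent against adherent cells. Counting genes in place of probes, or leaving flagged spots out of the 75th percentile (an alternative chosen, like normexp on median signals, after seeing the data), gave 0 higher on re-adhesion. The cause of these changes was not tested. Of 495 differences of single coding probes, 363 moved by less than their technical error, and of 216 counts in single lists 162 stayed within 1.5 times. No paired analysis was possible because the 3 states had 1 array apiece, and for the same reason no array could be left out. The arrays lie on 1 slide, so the slide could not be a block.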
